A study of Mus musculus with 23 samples.

Results

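The endometrium of 23 mouse uterine horns was profiled by bulk RNA sequencing. By the level of Adipoq (ENSMUSG00000022878), the gene of the fat-cell hormone adiponectin, 10 of them were high and 13 low in fat transcripts. A horn counts as one with fat transcripts where Adipoq was at 4 CPM (the count over the library total times 1000000) or more. A horn under that level counts as one without, although such horns still held low counts of fat-cell genes. The split was made on that measured level, so Adipoq and the other fat-cell genes are given as a description of the split, with no p-values of their own and nothing read from their calls. The horns were labelled HG+ORG (6), HG (6), PBS (5) or SHAM (6). In HG+ORG, HG and PBS, uteri of female C57BL/6 mice had been damaged with 70° ethanol, and 4 days later received a hydrogel derived from endometrium together with human endometrial organoids (HG+ORG), that hydrogel alone (HG) or saline (PBS). Tissue was taken 2 weeks after the injection. Neither what was done to the SHAM horns nor the age of the mice is stated in the labels. The endometrium was pressed out of each horn by hand to part it from the muscle wall, and the labels do not tie horns to mice. With 21 mice sacrificed at this time and 23 horns, some horns share a mouse, so the p-values below measure only the spread between horns and may be too small.

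White fat cells store triglyceride in a large droplet coated by perilipins, break it down under adrenergic signals into glycerol and fatty acids, and secrete hormones such as adiponectin and leptin. In the mouse, a white fat pad runs in the ligament along the uterine horns and around the ovary, outside the muscle wall, and the endometrium itself is no fat store. In bulk RNA from a horn, fewer fat cells and less fat-cell RNA per cell cannot be told apart.

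Total counts ran between 7920918 and 14902952 in horns with and between 11378821 and 14341151 in horns without fat transcripts. Defining genes of the labelled endometrium were present on both sides of the split. The epithelial adhesion gene Epcam had 1119 (lowest), 1314 (median) and 1859 CPM (highest) in horns with and 97.8, 1457 and 2087 CPM in horns without fat transcripts, and Esr1, the main uterine estrogen receptor, had 271, 327 and 363 CPM against 9.80, 344 and 480 CPM. The lowest value of each was in HG+ORG 18, a horn without fat transcripts that also held the highest level of many macrophage genes. SHAM 5 and SHAM 6, both with fat transcripts, lay closest of the 55 pairs of horns within groups, at 2.68 times the difference that sampling noise gives (chi-square over its degrees of freedom), where the next closest pair was at 15.8. They were counted as 2 horns. For the fit over all horns, the number of features called is also given with their counts summed. Within SHAM no fit with their counts summed was run.

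Adipoq differed by 149-fold among the horns with fat transcripts themselves. It was at 8.09 CPM in HG+ORG 19. Among the HG horns it was at 1048 CPM in HG 12, 96.5 in HG 13, 10.2 in HG 15 and 7.02 in HG 16. PBS 7 had 46.0 CPM, and SHAM 2, 4, 5 and 6 had 38.3, 14.9, 224 and 167 CPM. HG 12 stood highest by far, and the lowest horns with fat transcripts, at 7.02 and 8.09 CPM, were closer to the threshold than to their own median of 42.1 CPM. In the horns without, Adipoq was at 0 in 8 of 13, and its highest values, just outside the threshold, were 1.32 CPM in HG+ORG 21 and 0.607 CPM in HG+ORG 18. At the depth of these horns a count of 0 allows up to 0.209 to 0.264 CPM (3 counts, counting error only).

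**Figure D1:**
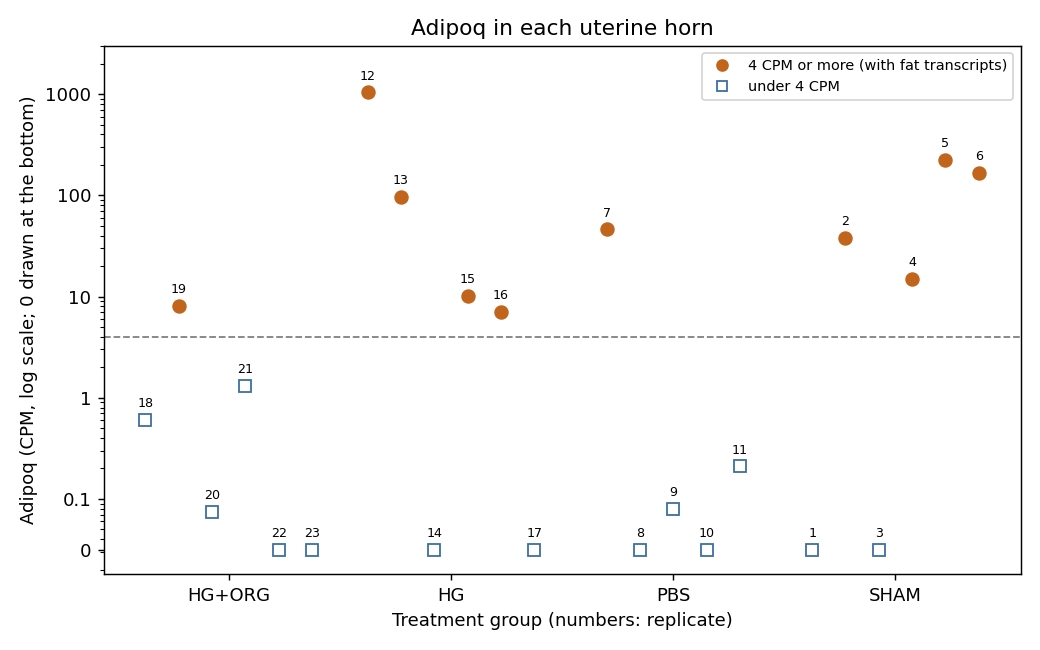
Adipoq in CPM (log axis, 0 drawn at the bottom) in each horn by treatment group, with filled circles for the 10 horns at 4 CPM or more, open squares for the 13 under it, replicate numbers above the points and a dashed line at 4 CPM. HG 12 reached 1048 CPM, and no horn lay between 1.32 and 7.02 CPM.

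Low counts of fat-cell genes were also present in some horns under the threshold. Of 7 genes (Adipoq, Cfd, Retn, Lep, Car3, Cidec and Plin1), HG+ORG 21 and HG+ORG 18 each held counts of all 7, and PBS 11 of 6. HG+ORG 21 had 95 counts of Car3, 52 of Cfd and 15 of Adipoq, while HG+ORG 18 had 46 of Cfd, 25 of Car3 and 7 of Adipoq. The other horns without held counts of 2 to 4 of the 7, so the split parts high from low levels of fat transcripts and not presence from absence.

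Horns with fat transcripts occurred in all 4 groups. They were 1 of 6 HG+ORG horns (16.7%, exact Clopper-Pearson 95% interval 0.421 to 64.1), 4 of 6 HG horns (66.7%, 22.3 to 95.7), 1 of 5 PBS horns (20.0%, 0.505 to 71.6) and 4 of 6 SHAM horns (66.7%, 22.3 to 95.7). The shares did not differ past the threshold of 0.05 in an exact two-sided test over the 4 groups (p = 0.193). Over the 17 ethanol-damaged horns together, 6 had fat transcripts (35.3%, 14.2 to 61.7), against 4 of 6 SHAM horns, and Fisher's exact test (two-sided) gave p = 0.341. With these numbers the intervals overlap widely.

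The fat-cell hormones led the comparison. Cfd, the complement protease adipsin that fat cells secrete, had 40.5 (lowest), 280 (median) and 5968 CPM (highest) in horns with and 0, 0.173 and 4.57 CPM in horns without fat transcripts. Its log2 fold, with over without, was 10.46 (SE 1.60) in edgeR's fit with treatment group as a covariate. Every horn with fat transcripts was above every horn without. Retn, the hormone resistin, had 1.82, 22.0 and 590 CPM against 0, 0.0787 and 1.30 CPM, also without overlap (log2 fold 8.70, SE 1.55). Lep, the satiety hormone leptin, was much lower, at 0.0882, 1.96 and 21.0 CPM in horns with fat transcripts, and the 10 horns with held 848 counts of it in all, against 4 counts in the 13 horns without. Lep overlapped between the sides, with 8 of 10 horns above the highest without. Rbp4, a retinol carrier also made in liver, had 0.848, 5.53 and 137 CPM against 0, 0.279 and 2.17 CPM (log2 fold 4.42, SE 1.28). Nrg4, an adipokine best known from brown fat, showed no such gap, at 5.01, 7.71 and 30.8 CPM against 2.17, 9.96 and 25.9 CPM.

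The promoters of Adipoq and Lep are shown because these genes mark fat cells and both were highest in HG 12. The sequences are RefSeq's, of build GRCm38.p6, 250 bases before to 50 after the gene start, chr16:23146286-23146585 on the plus strand for Adipoq and chr6:29059971-29060270 on the plus strand for Lep. Capitals mark matches, on either strand, to CCAAT or to TTGCGCAA, a palindrome that C/EBP factors, regulators of fat-cell genes, are known to bind. Both motifs were chosen after the promoters had been seen.
Adipoq promoter: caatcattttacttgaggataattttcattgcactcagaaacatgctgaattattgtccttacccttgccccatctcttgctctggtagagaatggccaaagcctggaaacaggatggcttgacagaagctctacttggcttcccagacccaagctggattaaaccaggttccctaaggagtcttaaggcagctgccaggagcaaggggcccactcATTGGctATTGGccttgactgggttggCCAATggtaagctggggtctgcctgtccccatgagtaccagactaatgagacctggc
Lep promoter: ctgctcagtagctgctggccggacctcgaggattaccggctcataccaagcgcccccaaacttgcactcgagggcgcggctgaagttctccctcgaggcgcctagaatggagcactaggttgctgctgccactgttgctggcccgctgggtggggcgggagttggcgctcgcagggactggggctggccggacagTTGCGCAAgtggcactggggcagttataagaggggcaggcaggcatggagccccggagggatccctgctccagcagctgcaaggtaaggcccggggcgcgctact
The Adipoq window held 3 matches to CCAAT and none to TTGCGCAA, and the Lep window 1 match to TTGCGCAA and none to CCAAT. Of all 32851 promoters of this length in the table, 37.4% held CCAAT and 0.183% held TTGCGCAA. Of 13 genes looked up, 10 were matched, with 11 promoters, and 1 of these, that of Lep, held TTGCGCAA, while 2 of the 11 held CCAAT. A match describes these letters and is not a bound site.

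Genes of the lipid droplet formed the other leading group. Cidec, which fuses droplets into a large one, had 4.86, 30.1 and 869 CPM in horns with and 0, 0 and 0.791 CPM in horns without fat transcripts (log2 fold 9.33, SE 1.34). Plin1, the perilipin that guards the droplet of fat cells, had 1.69, 15.9 and 503 CPM against 0, 0 and 0.434 CPM (8.86, SE 1.51). Adrb3, the beta-3 adrenergic receptor that starts lipolysis, had 0.563, 5.00 and 130 CPM against 0, 0.0838 and 0.240 CPM (6.49, SE 1.13). For these 3 genes no horn with fat transcripts overlapped a horn without. Plin4, a perilipin also present outside fat, had 2.46, 13.1 and 367 CPM against 0, 0.968 and 2.95 CPM (4.37, SE 1.03), and Aqp7, the glycerol channel of fat cells, had 0.121, 1.23 and 15.7 CPM against 0, 0 and 0.527 CPM (5.32, SE 1.11). The enzymes of lipolysis differed little at the median. Pnpla2, the lipase that takes off the first fatty acid, had 87.8, 114 and 661 CPM against 50.6, 86.3 and 130 CPM (0.67, SE 0.46), and Lipe, hormone-sensitive lipase, had 30.2, 45.6 and 384 CPM against 13.7, 34.5 and 113 CPM (0.48, SE 0.63). For both lipases the 2 sides overlapped.

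Across the 10 horns with fat transcripts, several genes kept their ratio to Adipoq while Adipoq itself ranged 149-fold. The ratio of Car3, carbonic anhydrase 3 and one of the most abundant transcripts of white fat, lay between 3.12 (HG+ORG 19) and 4.87 (HG 12), so its highest was 1.56 times its lowest. The ratio of Cfd lay between 4.60 and 8.91 (1.94 times), of Cidec between 0.445 and 0.966 (2.17 times) and of Plin1 between 0.209 and 0.524 (2.51 times). Retn varied 3.67 times and Lep 9.56 times, the Lep ratio being lowest in HG 15 and highest in SHAM 6. Lep counts were few in the horns lowest in Adipoq. The ratio of Fasn to Adipoq varied 13.1 times, of Pparg 15.4 times, of Lipe 17.2 times, of Pnpla2 22.0 times and of Slc2a4 26.5 times. These are ratios of CPM within a horn, not corrected for gene length, and they describe the horns chosen by Adipoq.

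**Figure D2:**
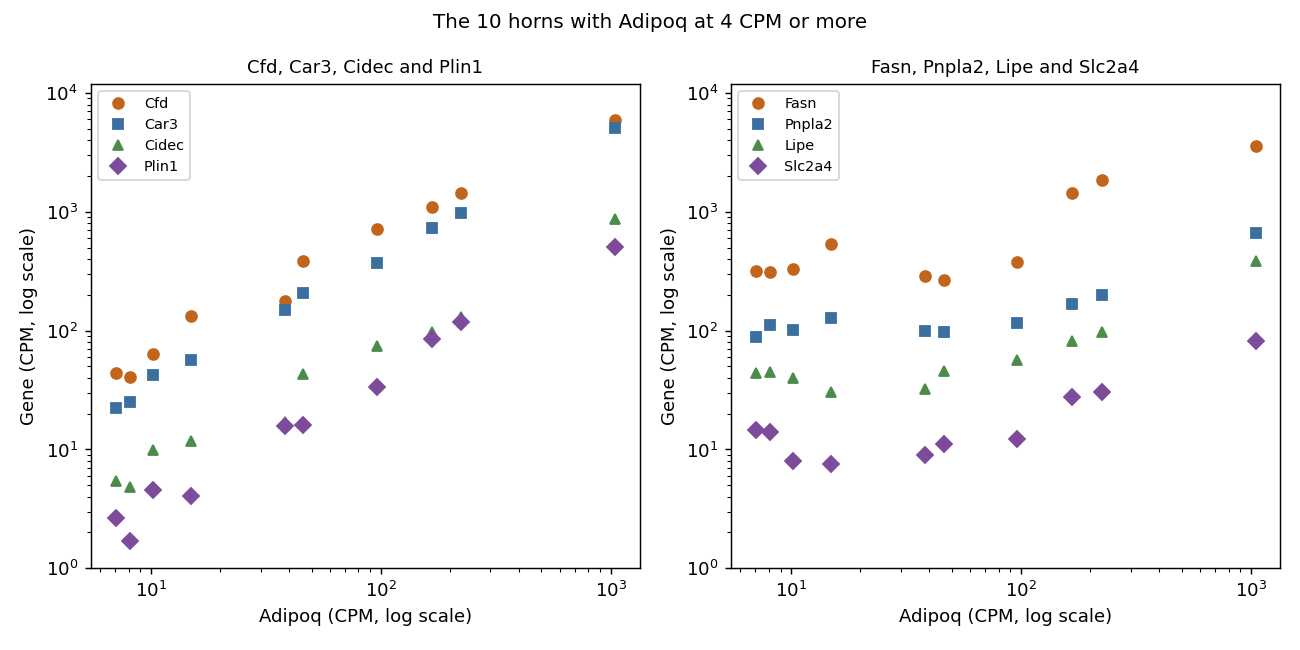
CPM of 8 genes against CPM of Adipoq (both log axes) in the 10 horns with Adipoq at 4 CPM or more, 1 point per horn and gene. Cfd, Car3, Cidec and Plin1 (left) climb along with Adipoq over its whole range, with ratios that vary 1.56 to 2.51 times, while Fasn, Pnpla2, Lipe and Slc2a4 (right) stay nearly level up to about the Adipoq level of HG 13 at 96.5 CPM.

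Several genes of fatty acid uptake had higher medians in horns with fat transcripts, and were also high in 1 horn without. Fabp4, the fatty acid binding protein of fat cells, macrophages and capillaries, had 15.9, 248 and 2901 CPM against 0, 0.968 and 441 CPM (log2 fold 8.79, SE 2.04). Lpl, the lipase that frees fatty acids from lipoproteins, had 17.2, 169 and 1884 CPM against 2.02, 23.6 and 2795 CPM (3.89, SE 1.56). Cd36, a fatty acid transporter, had 5.84, 84.9 and 658 CPM against 0.281, 6.63 and 2283 CPM (4.65, SE 1.92). The highest horn without was HG+ORG 18 for all 3, with more Lpl and Cd36 than any horn with fat transcripts but 0.607 CPM of Adipoq. Without HG+ORG 18 the log2 folds were 8.73 for Fabp4, 3.89 for Lpl and 4.63 for Cd36. Cd36 had a log2 fold of -0.82 when treatment group was left out of the model. Of the 9 genes of the list, 8 had a fold above 0, but Apoe differed little at the median, at 324 against 297 CPM (0.52, SE 0.80). The list's summed level was 235, 1064 and 7747 CPM in horns with and 89.9, 489 and 15686 CPM in horns without.

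Most genes of fat synthesis were abundant on both sides of the split. Scd1, the desaturase that makes oleic acid, had 41.4, 319 and 8548 CPM in horns with and 2.09, 80.0 and 175 CPM in horns without fat transcripts (log2 fold 4.30, SE 1.41), with 6 of 10 horns above the highest without. Pck1, which supplies glycerol for triglycerides in fat, had 16.3, 31.2 and 530 CPM against 0.781, 8.29 and 32.2 CPM (2.11, SE 0.75). Fasn, fatty acid synthase, was abundant on both sides, at 267, 353 and 3581 CPM against 42.1, 291 and 694 CPM (1.13, SE 0.58), and Dgat2, which completes triglycerides, had 243, 645 and 956 CPM against 33.3, 633 and 1204 CPM. Among transcription factors, Pparg, the master regulator of fat-cell formation, had 2.91, 7.70 and 65.2 CPM against 0.913, 2.56 and 15.6 CPM (1.00, SE 0.77), and Ebf2, a factor of fat precursors and brown fat, 0, 0.689 and 5.97 CPM against 0, 0 and 0.527 CPM (3.77, SE 1.12). Slc2a4, the insulin-responsive glucose transporter, had 7.57, 13.1 and 81.9 CPM against 0.867, 7.88 and 19.3 CPM (1.25, SE 0.59).

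Across all 17708 features tested by edgeR's quasi-likelihood test with Benjamini-Hochberg adjustment, 8 were higher in horns with fat transcripts at an adjusted p under 0.05 (0.0452%) and 0 were lower (0%). At an unadjusted p under 0.05, 169 were higher (0.954%) and 276 lower (1.56%), and the median log2 fold of all features was -0.02. The 8 were Adipoq, whose level made the split, Cidec, Cfd, Plin1, Adrb3 and Retn, which stand in the lists of fat-cell genes, and Cyp2e1 and Serpina3c, which stand in none. The count describes the split and is no test of it. The count depended on single horns. It was 0 without SHAM 1, SHAM 3, PBS 7 or HG 17, 3 without SHAM 6, PBS 8, 9, 10 or 11, HG 14, HG+ORG 20 or HG+ORG 23, 5 without SHAM 5, and 12 or 13 without HG 16, HG+ORG 18 or HG 12. DESeq2 called 45 higher (0.254%) and 4 lower (0.0226%) on the same model, and limma voom called 0. In edgeR the higher features numbered 72 (0.407%) with the log2 Adipoq level in place of the split (Adipoq itself among them), 30 (0.169%) without treatment group in the model, 21 (0.119%) with the split at 10 CPM and 3 (0.0169%) with SHAM 5 and SHAM 6 summed. In CPM, 12 features had every horn with fat transcripts above every horn without (0.0678%) and 0 every horn below (0%). These were Adipoq, Cfd, Retn, Cidec, Plin1, Adrb3, Car3, Cyp2e1, Slc7a10, Apol6, B3galt2 and A530016L24Rik.

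By list, the median log2 fold was 7.00 over 7 tested adipokines and 2.46 over 14 lipid droplet and lipolysis genes. The members called there, 3 in each list with Adipoq among them, describe the split and are no test of it. The median was 2.38 over 9 genes of fatty acid uptake, 0.79 over 22 of fat and triglyceride synthesis and 0.47 over 17 of fat-cell transcription and insulin response, with 0 called by edgeR in each. Without HG 12 the medians of these 5 lists were 6.46, 1.18, 1.63, 0.35 and 0.19. At an unadjusted p under 0.05, the higher members in those 5 lists numbered 6, 7, 5, 8 and 5, where 169 of all 17708 features were higher (0.954%). These counts too describe the split. Sfrp5 and Cidea were too low to be tested. edgeR called no member of any other list. DESeq2 called 18 members of the 5 fat-cell lists, among them Fabp4, Scd1 and Ebf2, and 2 of other lists, Cd209f and Cd163. Nothing is read from these calls.

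**Figure D3:**
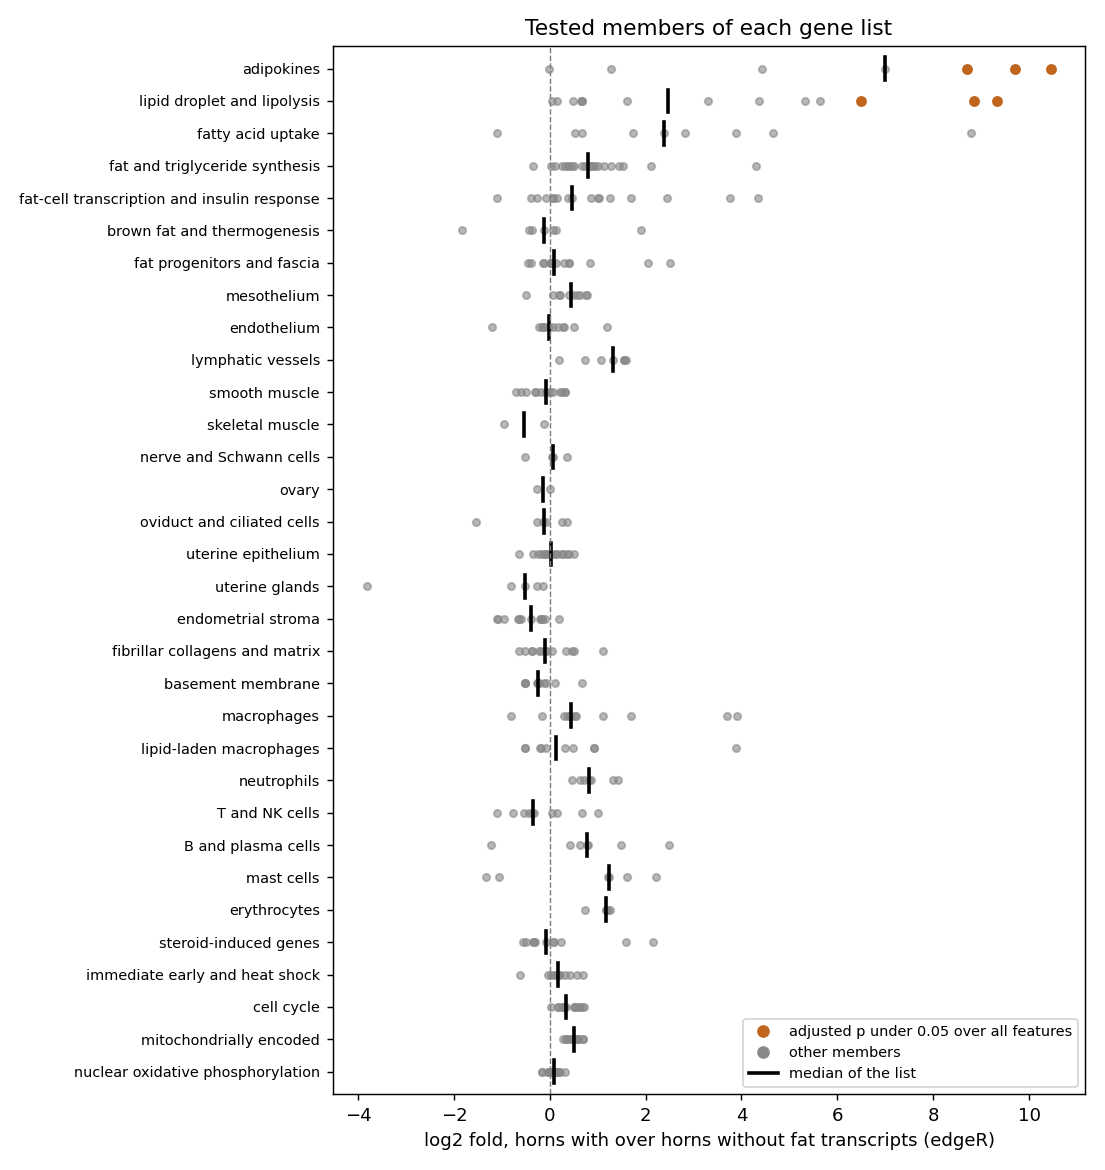
Log2 fold of each tested member of the gene lists (x axis, horns with over horns without fat transcripts, edgeR with treatment group as a covariate), 1 row per list, with the 6 members past an adjusted p of 0.05 in orange, other members in grey and the list's median as a black bar. The adipokine median stood at 7.00 and the next at 2.46 and 2.38, while the lists of endometrial epithelium, endothelium and smooth muscle centred near 0. The medians of endometrial stroma and uterine glands lay at -0.38 and -0.52.

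Outside the lists, the genes that came with fat transcripts included some known from fat. Cyp2e1, a cytochrome P450 of liver and fat, had 3.15, 33.9 and 1566 CPM in horns with and 0, 0.0797 and 1.47 CPM in horns without (log2 fold 9.11, SE 1.53). Its call was lost without 12 of the 23 horns in turn (SHAM 1, 3 and 6, PBS 7 to 11, HG 14 and 17, HG+ORG 20 and 23), and its fold stayed between 8.22 and 10.53. Serpina3c, of a family of protease inhibitors with near-identical copies whose reads may be split, had 1169 counts in the 10 horns with and 1 count in the 13 without, a ratio of pooled CPM of 1541 (95% counting interval 276 to 60903). Its call was lost without 16 horns in turn and held without 7 of the 23. Slc7a10, a neutral amino acid transporter and surface protein of white fat cells, had 747 counts against 2, a ratio of 492 (136 to 4072). Both ratios pool reads over horns, so HG 12, with the highest level of each gene, weighs most. The intervals hold no spread between horns, and Serpina3c was at 0 in HG+ORG 19. Apol6, of the apolipoprotein L family, had 0.352, 2.71 and 52.3 CPM against 0, 0.0754 and 0.349 CPM (5.68, SE 1.19). These 4 genes reached the CPM of the low-count filter, 0.787, in 6 to 10 of the 10 horns with and in 0 or 1 of the 13 horns without fat transcripts, so they were tested only because of the horns where they are high, and their values are a description without p. Sucnr1, a receptor for succinate chosen here after its values were seen, had 218 counts in horns with and 0 in horns without fat transcripts. That is 95.8-fold against a floor of 3 counts over the group of horns without, and the 95% counting interval began at 77.2-fold. HG 12 was the highest horn for each of these genes.

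No gene of the brown fat list was called by edgeR or DESeq2. Ucp1, Elovl3 and Zic1 were not found by symbol among the 18682 features of the counts. Cidea had 0.0681, 0.364 and 1.51 CPM in horns with and 0, 0.0787 and 2.99 CPM in horns without fat transcripts. Cox8b had 0, 0.304 and 5.75 CPM against 0, 0 and 0.434 CPM, the highest in HG 12. Over 7 tested genes of the list the median log2 fold was -0.13. Of the fat progenitor and fascia genes edgeR called 0 of 14 (median 0.09, and between -0.032 without HG 14 and 0.60 without PBS 10). Clec3b, a connective tissue protein, was the exception at an unadjusted p under 0.05, with 1.97, 13.3 and 44.8 CPM against 0.141, 1.57 and 14.2 CPM (2.51, SE 0.88, edgeR adjusted p = 1.00).

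Tissue layers that lie beside fat on the outside of the uterus were looked at through their markers. Upk3b, a surface protein of the mesothelium that covers the uterus and its fat, had 5.42, 11.1 and 74.9 CPM in horns with and 0.479, 7.12 and 29.9 CPM in horns without fat transcripts (0.56, SE 0.71). Msln, mesothelin, had 1.65, 5.84 and 25.1 CPM against 0.0799, 2.01 and 15.2 CPM (0.49, SE 0.92), with a log2 fold of -0.02 without PBS 7. None of the 10 mesothelial genes was called by edgeR (median 0.45, but -0.086 without PBS 7 and 1.17 without SHAM 3). Myh11, the myosin of smooth muscle, had 2.60, 10.5 and 693 CPM against 0.452, 8.93 and 273 CPM, and 0 of 14 smooth muscle genes were called (median -0.08, between -0.55 without HG 16 and 0.61 without PBS 10). Pecam1, which marks endothelium, had 2.89, 19.6 and 158 CPM against 0.632, 3.52 and 142 CPM, and 0 of 13 endothelial genes were called (median -0.01, between -0.72 without PBS 7 and 0.93 without PBS 10). The 7 lymphatic genes all had a fold above 0 (median 1.31, but 0.17 without PBS 7 and 1.84 without HG+ORG 19) and 0 were called by edgeR. Lyve1, of lymphatic vessels and some resident macrophages, had 0.845, 3.60 and 32.6 CPM against 0.797, 2.16 and 7.54 CPM (1.55, SE 0.64).

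Some genes of resident macrophages, mostly at low levels, had higher medians in horns with than in horns without fat transcripts. None passed edgeR's test, and other macrophage genes went the other way at the median (below). Cd209f, a lectin of resident macrophages, had 0.0704 (HG+ORG 19), 2.48 and 6.80 CPM (HG 13) in horns with and 0, 0.0787 and 0.434 CPM in horns without. In 9 of 10 horns with fat transcripts it was above the highest horn without (log2 fold 3.92, SE 0.81). Cd163, a scavenger receptor for hemoglobin, had 0.493, 1.99 and 8.30 CPM against 0, 0.168 and 3.16 CPM (3.70, SE 1.02). Cd209g and Retnla were chosen after their values were seen. Cd209g, a near-identical neighbour of Cd209f that may share its reads, had 0.252, 1.26 and 2.28 CPM against 0, 0 and 0.347 CPM (3.39, SE 0.72). Retnla, a secreted protein of alternatively activated macrophages, had 1.77, 11.1 and 26.2 CPM against 0.0703, 0.867 and 23.7 CPM (3.83, SE 1.17, edgeR adjusted p = 1.00). DESeq2 called all 4. Cd209f, Cd209g and Cd163 reached the CPM of the low-count filter in 8, 6 and 7 of the 10 horns with and in 0, 0 and 2 of the 13 horns without fat transcripts, so they were tested only because of the horns where they are high, and nothing is read from their calls. Retnla reached it in 10 of 10 and in 7 of 13.

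General macrophage genes overlapped fully. Adgre1 (F4/80) had 2.15, 12.1 and 32.6 CPM in horns with and 1.19, 16.4 and 121 CPM in horns without fat transcripts, and Lyz2, lysozyme, 15.4, 99.6 and 562 CPM against 12.5, 178 and 10660 CPM. Of 13 tested genes of the macrophage list, 2, Cd209f and Cd163, were higher at an unadjusted p under 0.05, as were 0.954% of all features. Of the 13, 11 had a fold above 0, and 0 were called by edgeR (median 0.44, but -0.055 without PBS 7). The medians of C1qa, C1qb and C1qc were lower in horns with (33.5, 35.2 and 31.5 CPM) than without (37.9, 42.5 and 35.7 CPM). Their log2 folds in the fit were 0.53, 0.42 and 0.44, while that of Cd68 was -0.82 (SE 0.89). The list's summed level was 112, 311 and 1064 CPM in horns with and 72.7, 462 and 14490 CPM in horns without, the highest in HG+ORG 18. Whether the macrophage genes came from the fat or from the endometrium was not tested.

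**Figure D4:**
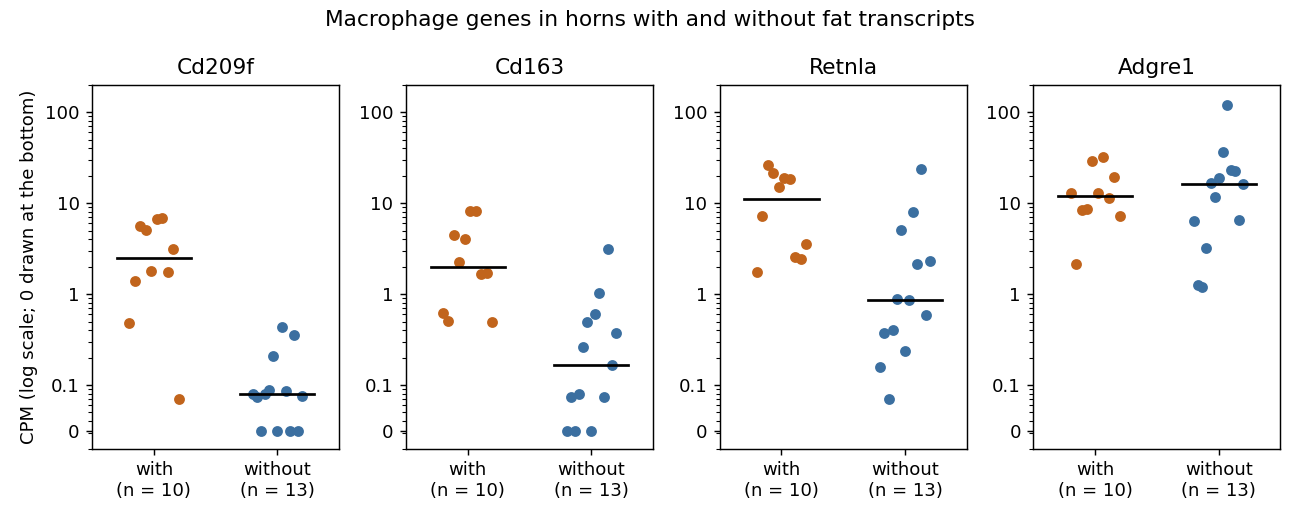
CPM (log axis, 0 drawn at the bottom) of 4 macrophage genes in the 10 horns with (left) and the 13 without fat transcripts (right), 1 point per horn, with the median as a bar. Cd209f in 9 of 10 horns with fat transcripts lies above its highest value without, 0.434 CPM, while Adgre1 overlaps fully.

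Of the endometrium's own genes, none was called by edgeR or DESeq2. Krt8, an epithelial keratin, had 691, 992 and 1765 CPM in horns with and 97.4, 1084 and 1401 CPM in horns without, and Pgr, the progesterone receptor, 131, 222 and 695 CPM against 4.08, 337 and 1151 CPM. The median log2 fold was 0.03 over 16 epithelial genes and -0.38 over 13 stromal genes. Of the stromal genes 1 had a fold above 0, where 45.6% of all features did. Of 5 tested uterine gland genes 0 had a fold above 0. Their median was -0.52, between -0.77 without SHAM 4 and -0.13 without HG+ORG 21. The lower genes with the smallest p did not pass in edgeR. They were Lrrc55 (log2 fold -2.31, SE 0.60, edgeR adjusted p = 0.664), an auxiliary subunit of potassium channels at 0.0671, 0.569 and 1.45 CPM against 0.139, 1.09 and 5.46 CPM, and Wfikkn2, Kif27, Apbb1 and Adra2a, with log2 folds of -1.27, -1.11, -1.10 and -0.86. DESeq2 called Lrrc55 lower (adjusted p = 0.0392).

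Only HG and SHAM held at least 2 horns on each side, which allowed the split to be set within a treatment. Within HG, Cfd was at 43.8 to 5968 CPM in the 4 horns with and at 0.160 and 0.173 CPM in the 2 without, and Cyp2e1 at 3.15 to 1566 CPM against 0 in both. Within SHAM, Cfd was at 133 to 1454 CPM in the 4 horns with and at 0.630 and 0.224 CPM in the 2 without, and Cyp2e1 at 7.32 to 111 CPM against 0.0787 and 0.0747 CPM. Cd209f had a log2 fold of 4.52 (SE 1.24) within HG and 4.93 (SE 1.34) within SHAM, Cd163 4.17 (SE 1.44) and 5.11 (SE 1.51), and Retnla 4.42 (SE 1.37) and 5.35 (SE 1.33). The 2 groups share no horns, but Cd209f, Cd163 and Retnla were named from values over all horns, these included. Their folds within a group are a description and no separate test, with 2 horns on each side without fat transcripts. SHAM 5 and SHAM 6 were counted as 2 of the 4 SHAM horns with, so each SE within SHAM may be too small. edgeR called 0 of 17537 features within HG (0%) and 0 of 16877 within SHAM (0%). At an unadjusted p under 0.05 there were 1072 higher (6.11%) and 1225 lower (6.99%) within HG, and 422 higher (2.5%) and 700 lower (4.15%) within SHAM, while DESeq2 called 502 higher (2.86%) and 522 lower (2.98%) within HG, and 66 higher (0.391%) and 29 lower (0.172%) within SHAM. With 1 horn left on the side without fat transcripts, edgeR called 608 features within SHAM without SHAM 1 and 125 within HG without HG 17. Among the 16512 features tested in both, 34 were higher at that p in both groups, 3.28% of 1036 in HG and 8.40% of 405 in SHAM, and 17 lower in both, 1.59% of 1069 and 2.50% of 681. Of all those features, 6.27% were higher in HG and 2.45% in SHAM, and 6.47% and 4.12% lower, so the shared counts are near this background or below it and are no result of their own. The 34 included Adipoq, Cfd, Retn, Lep, Cidec, Plin1, Adrb3, Car3, Cyp2e1, Fabp4, Cd36, Cd209f, Cd163 and Retnla, and 0 of the 17 lower ones stood in a list.

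Msln and Upk3b of the mesothelium and Pecam1 of endothelium had folds of opposite sign in the 2 groups. Msln had a log2 fold of 4.56 (SE 1.39) within HG and -1.49 (SE 0.85) within SHAM, Upk3b 3.60 (SE 1.30) and -0.77 (SE 0.72), and Pecam1 -0.90 (SE 0.57) and 1.94 (SE 0.71). Opposite signs were not limited to these layers. Hoxa10 of the endometrial stroma had -3.20 (SE 0.73) within HG and 1.98 (SE 0.88) within SHAM, and Epcam of the epithelium 1.07 (SE 0.31) and -0.55 (SE 0.41). Esr1, in the stromal list, kept its sign, at -0.24 (SE 0.23) and -0.33 (SE 0.24). The interaction of group and split did not pass for any of 16216 features by edgeR's quasi-likelihood test (0%, 2347 at an unadjusted p under 0.05, smallest adjusted p 0.121). For Msln, Upk3b, Pecam1, Hoxa10 and Epcam its adjusted p was 0.167, 0.225, 0.215, 0.142 and 0.185.

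With the split in the model, no feature was called between treatments by edgeR in any of the 6 contrasts (0% each), and none was called without it either. At an unadjusted p under 0.05 there were 1221 features for HG+ORG against SHAM with the split in the model and 1754 without it, 1710 and 1996 for HG against SHAM, 290 and 385 for PBS against SHAM, 1377 and 1737 for HG+ORG against HG, 1005 and 1079 for HG+ORG against PBS, and 476 and 597 for HG against PBS. DESeq2 called 135 features (0.762%) for HG against SHAM with the split and 281 (1.59%) without it, and 50 (0.282%) and 162 (0.915%) for HG+ORG against HG. For HG+ORG against SHAM it called 83 (0.469%) either way, and for HG+ORG against PBS 2 (0.0113%) with the split and 0 without it.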

How the data were processed

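Endometrial RNA of 23 horns was sequenced as poly(A) stranded, single-end libraries, per the labels' protocols. The authors deposited whole-number read counts per gene. Per the submitters' processing notes, their tools included Trimmomatic 0.39, HISAT2 2.2.1 and featureCounts 2.0.3 on build GRCm39. Whether strand was used in counting, other settings and the annotation release are not given in the sources cited, so genes that overlap, lie antisense or have close copies may share reads. All 18682 features had 10 counts or more in 3 or more libraries, and 18341 were matched to symbols.

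Counts as deposited were tested with edgeR 4.0.16 in R 4.3.3 (quasi-likelihood, TMM factors, filterByExpr by treatment group, 17708 kept), with treatment group and the Adipoq split as terms and Benjamini-Hochberg adjustment at 0.05. The SE of a log2 fold was taken as its size divided by the root of the F statistic. DESeq2 1.42.0, limma voom 3.58.1 and other filters, factors, thresholds and left-out horns were alternatives. Exact tests used scipy 1.17.1. The code was tested on simulated counts with smaller folds than those of the leading fat-cell genes, so it was not tested at folds of that size. The members and lists were chosen with earlier results of these data known. Genes named are drawn from a fixed set of fat and tissue markers and from the 3 of smallest p per list. They are also drawn from up to 10 genes a side past the threshold, at a mean of 1 CPM or more and in no list (where fewer than 5 passed, the 5 of smallest p). Not every gene of these sets is printed, Col1a1 of the fixed set being among those left out. Other members are named with their list, and other genes were chosen after their values were seen. Promoters came from a table of build GRCm38.p6, so no GRCm39 coordinates are given. Intervals cover counting error only.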

Additional observations from a re-analysis of the deposited data

Results flagged for a closer look

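Among 55 sets of values examined (genes over the 10 horns with fat transcripts, and Adipoq within treatment groups), 6 had a highest horn that stood far from the rest of its set. The usual chance rate of about 1 set in 20 does not apply, since most sets share the same 10 horns, chosen by Adipoq. In 5 of the 6 the horn was HG 12, which also had the most Adipoq. On the log2 CPM scale (prior count 2), Pnpla2 was at 9.50 in HG 12 and at most 7.49 in the other horns with fat transcripts, and Lipe was at 8.72 and at most 6.46. Both encode lipases of triglyceride breakdown. Pck1, which supplies glycerol for triglycerides, was at 9.18 and at most 5.80. Slc2a4, the insulin-responsive glucose transporter, was at 6.49 and at most 4.79, and Apoc1, a small apolipoprotein, was at 5.72 and at most 3.38. The remaining one was Adipoq within PBS, at 5.44 in PBS 7 and at most -1.44 in the other 4 PBS horns, which restates the split made on Adipoq, PBS 7 being the one PBS horn with fat transcripts.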

How the results depend on the processing

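The 8 features higher in horns with fat transcripts became 45 with DESeq2, 0 with limma voom, 30 with no treatment group in the model, 21 with the split at 10 CPM, 72 with log2 Adipoq level in place of the split and 3 with SHAM 5 and 6 summed. They numbered 8 to 10 with relative log expression factors, no low-count filter, a robust fit, a smooth muscle score as covariate, the split at 1 CPM or the split on TMM-scaled CPM. The 0 lower features became 4 with DESeq2 and stayed 0 in the other settings. Leaving out each horn gave 0 to 13 higher and 0 to 0 lower features. It gave p between 0.0580 and 0.276 for the shares over the 4 groups and between 0.135 and 0.609 for damaged horns against SHAM. Between treatments with the split in the model, leave-one-out counts were 0 to 0 in each contrast. DESeq2 called 135 features for HG against SHAM, 83 for HG+ORG against SHAM, 2 for HG+ORG against PBS and 50 for HG+ORG against HG. With no split in the model, a setting added after the data had been seen, DESeq2 called 1 for PBS against SHAM, 281 for HG against SHAM, 83 for HG+ORG against SHAM and 162 for HG+ORG against HG. Within SHAM DESeq2 called 95 and leaving out a horn gave 0 to 608 (608 without SHAM 1). Within HG DESeq2 called 1024 and leaving out a horn gave 0 to 125 (125 without HG 17). Where a side was left with 1 horn, that horn is assumed to vary like the others. Of 51 named genes under 35 settings, 49 kept the sign of their log2 fold in every setting that tested them (Aqp7 and Ebf2 were not tested in all). Many of them share the source of the split or were named for small p in the same fit, so kept signs are no test of them. Cd36 turned to -0.82 with no treatment group in the model, and Msln to -0.016 without PBS 7 (up to 1.38 without SHAM 3). The causes were not tested. No paired analysis was possible because the replicate numbers are not shared between groups. Depth limits genes such as Lep, Cd209g and Serpina3c, which rest on a few counts in horns without fat transcripts.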

Other observations

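The calls depended on how the level of fat transcripts was modelled. With log2 Adipoq level in place of the split, 72 of 17708 features were called (0.407%), Adipoq, the predictor itself, among them. Of the 72, 27 stood in the lists of fat-cell genes, 2 in other lists and 43 in none. Nat8l, which makes N-acetylaspartate, and Ghr, the growth hormone receptor, were among those in no list and were chosen here after their values had been seen. Nat8l had a log2 CPM (prior count 2, mean ± SD) of 1.63 ± 2.41 in the 10 horns with and -1.06 ± 0.99 in the 13 without fat transcripts. Ghr had 5.22 ± 1.67 in the 10 horns with and 3.79 ± 0.76 in the 13 without fat transcripts. In the split fit at 10 CPM, 21 were called (0.119%), 10 of them in the fat-cell lists. DESeq2 called 45 higher (0.254%) and 4 lower (0.0226%), and of these 49, 18 stood in those lists and 29 in none.

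All 13 mitochondrially encoded genes had a log2 fold above 0 in the fit over all horns (median 0.50, and 0.19 without HG+ORG 19), with a summed level of 15412 (lowest), 56267 (median) and 111313 CPM (highest) in horns with and 14705, 37852 and 92597 CPM in horns without. None was called. Within HG 10 of the 13 had a fold above 0 (median 0.091), and within SHAM all 13 had a fold below 0 (median -0.46). Of the 20 nuclear genes of oxidative phosphorylation, 14 had a fold above 0 (median 0.09), and over all features 45.6% did. Folds above 0 in every tested member were not particular to the mitochondrial list. The lists of cell cycle (15 of 15), neutrophil (7 of 7) and erythrocyte genes (5 of 5) were among others that had them.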
